A study of Mus musculus with 14 samples.

Results

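The 10 genes described here mark the mural cells of brain vessels: Pdgfrb, Rgs5, Abcc9, Kcnj8, Anpep, Notch3, Vtn, Acta2, Tagln and Myh11. They were picked out by symbol, from a list drawn up with earlier results of these data known, and all 10 were found among the 17927 genes of the count table. RNA-SEQ, which counts sequenced RNA fragments per gene, was run on whole brains at postnatal day 2 (P2) to ask which mRNAs differ when the intracellular protease Calpain-15 is missing. The 7 WT and 7 Capn15 KO brains came from untreated mice of 6 litters, of a line made on C57BL/6J. The methods name a Capn15 (lacZ-Neo) line and a FLOXed Capn15 line without saying which gave these brains, and name no Cre driver for them. By the column names of the count table, 2 WT brains were female and 5 male, and 4 Capn15 KO brains were female and 3 male. A WT and a Capn15 KO brain with the same replicate number shared a litter.

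Mural cells wrap the outside of the endothelial tube. Pericytes sit on capillaries inside the basement membrane and are recruited by PDGF-B from endothelial cells, which binds the receptor tyrosine kinase encoded by Pdgfrb. They are needed for the blood-brain barrier to form before and around birth. Vascular smooth muscle cells sit on arterioles and arteries and carry a contractile apparatus of smooth muscle actin (Acta2), the actin-binding protein transgelin (Tagln) and smooth muscle myosin heavy chain (Myh11), whose genes are controlled by serum response factor (SRF) at a DNA element called the CArG box. The other 7 genes are treated here as pericyte genes, although Notch3, the receptor that endothelial Jag1 activates, and Rgs5 are also used by smooth muscle. Abcc9 and Kcnj8 encode the SUR2 and Kir6.1 subunits of a vascular ATP-sensitive potassium channel, Anpep encodes the surface peptidase CD13, and Vtn encodes vitronectin, a matrix protein bound by integrins.

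The libraries held between 37620954 and 70910163 counts on genes, and every member had at least 106 counts in every brain, well above the 3 counts taken as the floor. The GEO labels give neurons as the cell type, but the material was brain tissue: the 6 neuron markers summed to between 6582 and 6934 CPM in WT (CPM are counts scaled for the depth of each library), the 12 endothelial markers to between 361 and 424 CPM, and the 7 pericyte genes to between 282 and 360 CPM. In such bulk RNA, fewer cells of a type and less RNA per cell cannot be told apart. Capn15 itself was at 25.0 to 27.3 CPM in the WT brains of litters A to E and at 12.2 to 14.5 CPM in their Capn15 KO brains, but replicate 7, of litter F, held 18.7 CPM in the brain labelled WT and 20.2 CPM in the brain labelled KO. Both values lay between the ranges of the other litters, so neither label is borne out. Values without litter F are given for some results only.

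Of the 7 members whose promoter could be searched, Acta2 alone had letters close to a CArG box in the 250 bases before its RefSeq start. RefSeq windows (GRCm38.p6) were at hand for 7 of the 10 members: Rgs5, Abcc9, Kcnj8, Anpep, Notch3, Vtn and Acta2. Pdgfrb and the contractile genes Tagln and Myh11 were not searched. None of the 7 windows held an exact CArG box on either strand, which 1.47% of all 32851 windows did. Acta2 had 2 sites that depart from it by 1 base in the A/T core, a search added after its sequence was seen, and 0.548% of all windows hold at least 2 such sites and 7.24% at least 1. Among other smooth muscle genes with a window, Cnn1, Smtn, Lmod1, Mylk, Tpm2, Cald1, Synpo2 and Pln held neither an exact box nor such a site. Myl9 held 1 of each, and Srf held 2 exact boxes. The Acta2 stretches are shown because the CArG box is an element known from contractile genes, with the CArG-like letters in capitals. An exact box upstream of Srf itself stands beside them:
Acta2, chr19:34255438-34255467, minus strand: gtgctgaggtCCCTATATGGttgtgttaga
Acta2, chr19:34255388-34255417, minus strand: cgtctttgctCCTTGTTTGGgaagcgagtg
Srf, chr17:46556225-46556254, minus strand: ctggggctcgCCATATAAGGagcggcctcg

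The sites in Acta2 begin 84 and 34 bases before its RefSeq start, and in GENCODE M21 a longer Acta2 transcript starts farther upstream, so that both sites lie within the annotated gene. The letters TGGGAA, the core of the site of the Notch partner RBPJ, occurred in the windows of Abcc9, Vtn and Acta2, and in 21.6% of all windows. In Acta2 they overlap the CArG-like letters nearer the start. In Abcc9 and Vtn they stand alone, in capitals here:
Abcc9, chr6:142702478-142702507, minus strand: ggtggtcctgaaTGGGAAtggccggagtga
Vtn, chr11:78498872-78498901, plus strand: gataacggcttaTGGGAAtgagttggaagc

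These matches describe letters and say nothing of binding in these brains.

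Per exon length, the pericyte genes Vtn and Rgs5 were the most abundant members and the myosin gene Myh11 the least. Levels between genes were compared as CPM per kilobase of exon, over all 14 brains. Vtn was at 36.1 ± 2.74 and Rgs5 at 29.97 ± 4.06 (SD, n = 14 brains), and their ranges overlapped although Vtn was the higher of the pair within each brain. Pdgfrb followed at 7.24 ± 0.797, a level whose range met neither that of Rgs5 above it nor that of Acta2 below it. Acta2 at 3.89 ± 0.522, Notch3 at 3.42 ± 0.266, Kcnj8 at 3.16 ± 0.36 and Abcc9 at 2.60 ± 0.351 formed a run in which each range overlapped the next. Of this run, the channel subunits Kcnj8 and Abcc9 differed by 1.21 times, with Kcnj8 the higher in each of the 14 brains. Tagln was at 1.81 ± 0.259, overlapping Abcc9, while Anpep at 0.715 ± 0.0852 lay wholly below Tagln. Myh11, at 0.572 ± 0.0968, overlapped Anpep and was the lower of the pair in 10 of 14 brains. So the contractile genes did not form 1 level: Acta2 was 6.80 times Myh11 per kilobase.

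**Figure D1:**
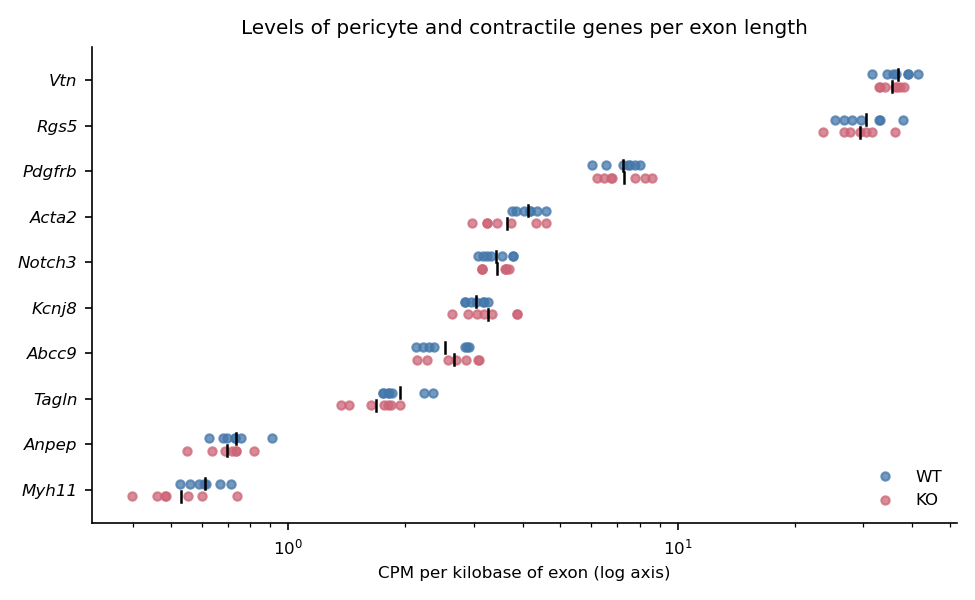
CPM per kilobase of exon (log axis) of each member, 1 point per brain, 7 WT and 7 Capn15 KO, with black bars at the group means. The members are ordered by their mean over 14 brains, from Vtn at 36.1 to Myh11 at 0.572, and the WT and Capn15 KO points of each gene overlap.

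The question put to these genes was whether mural cell mRNAs differ between Capn15 KO and WT brains. With litter and sex in the model, edgeR's quasi-likelihood test called no member at an FDR under 0.05, a call made for 1 gene in the whole table, or 0.00558% of those tested. Capn15 itself, at a log2 fold change of -0.81 with a standard error of 0.118, did not pass in that fit either (FDR = 0.0747). Its CPM did not overlap between genotypes in litters A to E, while in litter F the order was reversed. The paper's own edgeR test, with sex and litter as variables, lists Capn15 among the decreased mRNAs at an FDR under 0.05. The decrease of Capn15 listed there is also larger than the one here. Why that call and that size differ from those here was not tested. The 7 pericyte genes split into 3 lower and 4 higher, with a median log2 fold change of 0.01 beside 0.00 over all genes, and none had an unadjusted p under 0.05, which 5.14% of all genes had. The 3 contractile genes were each lower in Capn15 KO, at 0.855 to 0.892 times the WT level, with unadjusted p between 0.0291 and 0.0356, a mark that 2.26% of all genes reached in that direction. Their FDRs lay between 0.933 and 0.938, so these 3 differences do not stand once all genes are counted.

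**Figure D2:**
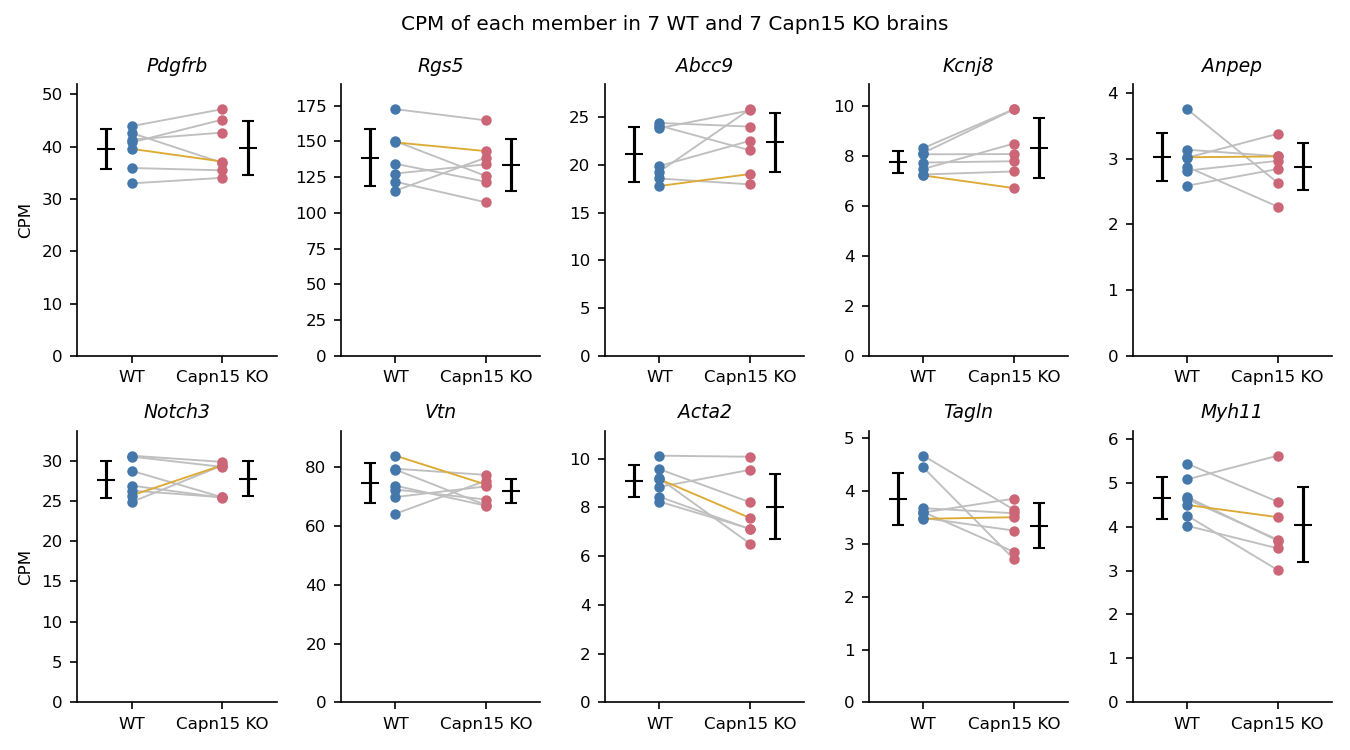
CPM of each member in 7 WT (blue) and 7 Capn15 KO (red) brains, with lines joining brains of the same replicate number, the litter F pair in yellow, and black bars for the mean ± SD. Acta2 and Myh11 were lower in Capn15 KO in 6 of 7 pairs, while the pericyte genes show lines in both directions.

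Among the contractile genes, Acta2 (ENSMUSG00000035783, chr19:34241090-34255590, minus strand, 9 exons) ran from 8.23 through a median of 9.15 to 10.1 CPM in WT and from 6.51 through 7.56 to 10.1 CPM in Capn15 KO. Of the Capn15 KO brains 5 lay below the lowest WT brain, yet the groups overlapped because the Capn15 KO brains of litters A and D were as high as WT. The means were 9.07 ± 0.648 CPM in WT and 8.02 ± 1.33 CPM in Capn15 KO (SD, n = 7 each), a log2 fold change of -0.16 with a standard error of 0.0706 and a 95% interval of -0.32 to -0.01. An exact permutation test over brains gave p = 0.0693, and an exact sign-flip test over the 7 pairs gave p = 0.0469, both two-sided. The pairs of replicates 2 and 3 shared litter B and were matched within it by number alone, so the pairs are not all independent. In all pairs but that of litter F the brains also differed in sex, which neither exact test adjusts for. These limits hold for the pair counts and exact tests of every gene here.

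Myh11 (ENSMUSG00000018830, chr16:14194535-14291372, minus strand, 41 exons) behaved alike in the pairs. Its WT brains lay between 4.02 and 5.43 CPM with a median of 4.62, and its Capn15 KO brains between 3.01 and 5.61 CPM with a median of 3.70. The highest brain of all 14 was thus a Capn15 KO brain, of litter D, while 4 Capn15 KO brains lay below every WT brain. The log2 fold change was -0.18 with a standard error of 0.0728 and an interval of -0.33 to -0.02, and 6 of 7 pairs showed this direction (p = 0.0469 by an exact sign-flip test over pairs, p = 0.0979 by an exact permutation test over brains). Over all genes 5.52% were lower in Capn15 KO in 6 or 7 pairs.

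Tagln (ENSMUSG00000032085, chr9:45929619-45936058, minus strand, 5 exons) had the largest estimate of the 3. It ran from 3.48 to 4.67 CPM in WT with a median of 3.61, and from 2.72 to 3.86 CPM in Capn15 KO with a median of 3.51. The medians lay close together, while 2 WT brains, of litters C and E, stood above every Capn15 KO brain and 3 Capn15 KO brains stood below every WT brain. Its log2 fold change was -0.23 with a standard error of 0.0955 and an interval of -0.43 to -0.02, a direction that 5 of 7 pairs showed (p = 0.109 and p = 0.0705 by the same exact tests). Exons of Pcsk7 and Gm48529 overlap Tagln on the other strand, and the strand setting of the counting is not given in the sources used here, so reads of these genes may not have been told apart.

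The calls on the contractile genes depended on single litters, and the size of the difference on litter C. Without the Capn15 KO brain of replicate 4, which leaves its WT partner of litter C without a counterpart, the log2 fold changes were -0.12 for Acta2, -0.08 for Tagln and -0.09 for Myh11, and none of the 3 had an unadjusted p under 0.05. Leaving out WT replicate 4, which is nearly the same fit and no separate check, gave the same count and a median of -0.09 over the 3 genes, against -0.18 with all 14 brains. Leaving out WT or KO replicate 6, of litter E, also left 0 of 3 under that mark, but the median stayed at -0.17. Leaving out WT replicate 3 left 1 of 3, with a median of -0.17. Without litter F, 2 of 3 were under it, and Acta2, at a log2 fold change of -0.14, was not. With DESeq2, and with genotype as the sole term of the edgeR model, 0 of 3 were under it, at medians of -0.18 and -0.20.

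Other smooth muscle genes, listed with these members, did not pass either threshold. Of 12 listed, Myocd and Pln were not in the table, 9 of the 10 measured were lower, beside 48.6% of all genes, 0 had an unadjusted p under 0.05, and the median log2 fold change was -0.06. That median was -0.0049 without replicate 4 of either genotype and -0.11 without replicate 5. The smallest p was that of Lmod1, an actin filament nucleator of smooth muscle, at 0.651 ± 0.162 CPM in WT and 0.507 ± 0.12 CPM in Capn15 KO (SD, n = 7 each; FDR = 1). Calponin 1 (Cnn1) was at 0.369 ± 0.12 and 0.320 ± 0.103 CPM, too low for its interval to exclude a change in either direction. Srf, the factor of the CArG box, was at 27.4 ± 1.35 CPM in WT and 27.9 ± 1.32 CPM in Capn15 KO (SD, n = 7 each), a log2 fold change of 0.02 with a standard error of 0.0311.

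Marker genes of other cells that could contribute RNA were read beside the contractile result. All 6 choroid plexus markers were lower in Capn15 KO, beside 48.6% of all genes, and 0 had an FDR under 0.05. Of the 6, 5 had an unadjusted p under 0.05 (Kcnj13, Aqp1, Clic6, Cldn2 and Folr1), beside 2.26% of all genes lower at that mark. With genotype alone 1 of 6 had. Their summed level ran from 45.03 to 59.3 CPM in WT and from 38.5 to 54.4 CPM in Capn15 KO. Of 10 meningeal fibroblast markers 7 were lower and 3 had an unadjusted p under 0.05 and were lower (Slc6a13, Crabp2 and Lum), beside the 2.26% of all genes, with sums of 412 to 609 CPM in WT and 466 to 594 CPM in Capn15 KO. With 1 brain left out the number of these 10 that were lower at that mark ranged from 1, without replicate 4, to 5, without replicate 5, and with genotype alone it was 1. Of 8 skeletal muscle markers Myod1, Myog and Ckm were not in the table, and the other 5 summed to between 8.46 and 11.0 CPM in WT and between 8.08 and 10.9 CPM in Capn15 KO, with 0 of 5 under p of 0.05 and Tnnt3 the nearest to it. No gene of any list that was in the table was at 0 in any brain. The part of these cells in the contractile differences was not tested.

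**Figure D3:**
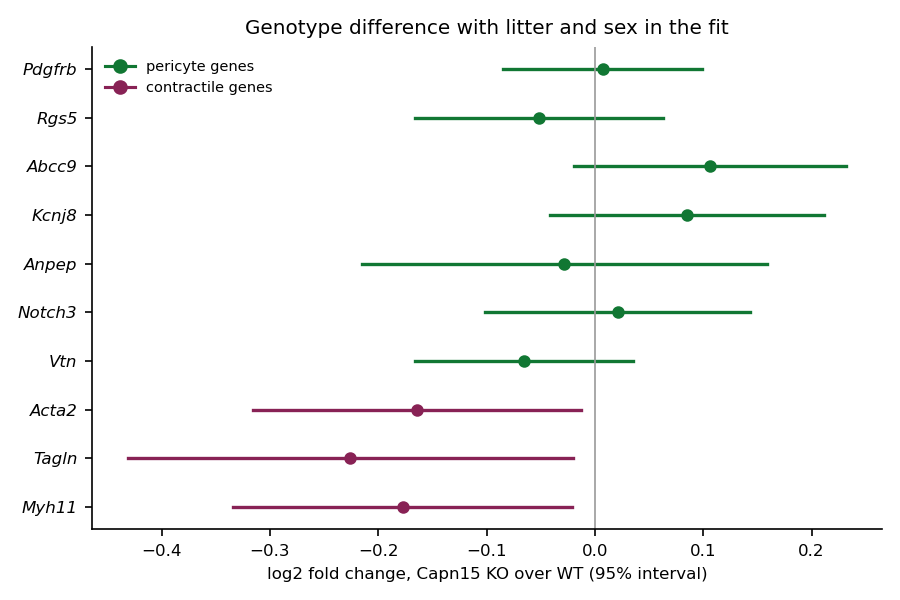
Log2 fold change of each member, Capn15 KO over WT, with its 95% interval from the quasi-likelihood fit over 14 brains. The intervals of Acta2, Tagln and Myh11 end at -0.01 to -0.02, just below 0, and those of the 7 pericyte genes span 0.

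For the pericyte genes the intervals come from the fit that includes litter F, whose genotype labels are not borne out. They are therefore not outer limits on the difference. Pdgfrb (ENSMUSG00000024620, chromosome 18, 61045150 to 61085061, plus strand, 24 exons) lay between 33.0 and 43.9 CPM in WT with a median of 40.8, and between 34.0 and 47.2 CPM in Capn15 KO with a median of 37.1. The groups overlapped over nearly their whole range, and the means were 39.6 ± 3.86 and 39.8 ± 5.14 CPM (SD, n = 7 each). The fold change of Pdgfrb was 1.005 with a 95% interval of 0.943 to 1.07. Its ligand gene Pdgfb was at 19.2 ± 2.66 and 19.5 ± 3.07 CPM, and of the 5 other PDGF ligand and receptor genes 0 had an unadjusted p under 0.05, with Pdgfra, the receptor of oligodendrocyte precursors, the nearest at a log2 fold change of -0.07 (FDR = 0.972).

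Rgs5 (ENSMUSG00000026678, chr1:169655501-169695813, plus strand, 5 exons), a regulator of G protein signalling and a standard pericyte marker, was the member with the most counts. It ran from 116 to 173 CPM in WT and from 107 to 165 CPM in Capn15 KO, with a median of 134 CPM in both. The fold change was 0.965 with an interval of 0.891 to 1.04. Vtn (ENSMUSG00000017344, chr11:78499091-78502324, plus strand, 8 exons) ran from 64.2 to 83.9 CPM in WT and from 66.9 to 77.4 CPM in Capn15 KO, with medians of 73.7 and 73.5 CPM. Its fold change was 0.956 with an interval of 0.891 to 1.02. Of its integrin receptor genes Itgav, Itgb3 and Itgb5, 0 of 3 had an unadjusted p under 0.05, with Itgav at 43.4 ± 2.87 CPM in WT and 43.5 ± 1.83 CPM in Capn15 KO.

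The 2 channel subunits were the members with the largest upward estimates. Abcc9 (ENSMUSG00000030249, chr6:142587862-142702315, minus strand, 40 exons) and Kcnj8 (ENSMUSG00000030247, chr6:142564837-142571614, minus strand, 3 exons) are neighbours with 16247 bases between them. Abcc9 ran from 17.8 to 24.4 CPM in WT with a median of 19.9, and from 17.97 to 25.9 CPM in Capn15 KO with a median of 22.5. It was lower in 3 of 7 pairs, and the log2 fold change was 0.11 with a standard error of 0.0584 (FDR = 1). With 1 brain left out this estimate ranged from 0.0145, without replicate 4 of either genotype, to 0.19, without replicate 5. Exons of 5330439B14Rik overlap it on the other strand. Kcnj8 ran from 7.23 to 8.33 CPM in WT and from 6.73 to 9.89 CPM in Capn15 KO, where the spread was wider, and was lower in 1 of 7 pairs. Its log2 fold change was 0.08 with a standard error of 0.059 (FDR = 1). The subunits of the neuronal form of the channel, Kcnj11 at 13.5 ± 0.738 and 13.5 ± 0.942 CPM and Abcc8 at 15.7 ± 1.09 and 15.6 ± 1.48 CPM, did not pass the test either.

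Notch3 (ENSMUSG00000038146, chr17:32120820-32166852, minus strand, 33 exons) had one of the smallest spreads between brains, with a coefficient of variation of 7.78%. Its means were 27.6 ± 2.32 CPM in WT and 27.7 ± 2.16 CPM in Capn15 KO (SD, n = 7 each), and the log2 fold change of 0.02 became -0.01 without litter F. Gm17276 overlaps its exons on the other strand. Of 13 other Notch ligand, receptor and target genes 1 had an unadjusted p under 0.05, beside 5.14% of all genes. It was Jag1, the ligand gene, at 25.7 ± 2.3 CPM in WT and 23.7 ± 1.97 CPM in Capn15 KO. Its log2 fold change was -0.10 with a standard error of 0.0336 (quasi-likelihood FDR = 0.784). Among the Notch target genes, Heyl and Hes1 were at 5.40 ± 0.669 and 8.12 ± 1.2 CPM in WT and at 5.53 ± 0.423 and 8.12 ± 0.496 CPM in Capn15 KO. Whole-brain RNA does not separate their level in mural cells from that in other cells.

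Anpep (ENSMUSG00000039062, chr7:79821803-79861059, minus strand, 21 exons) was the least abundant pericyte gene, with 106 to 187 counts per brain. It ran from 2.59 to 3.75 CPM in WT and from 2.27 to 3.38 CPM in Capn15 KO. The fold change was 0.981 with an interval of 0.862 to 1.12, the widest among the pericyte genes on the lower side. Over the 7 pericyte genes the intervals of the fit with litter F reached from 0.862-fold for Anpep to 1.17-fold for Abcc9. Without litter F, the log2 fold changes were 0.118 for Kcnj8 (standard error 0.0626) and 0.108 for Abcc9 (standard error 0.0644). That of Anpep was -0.035 (standard error 0.0993). These standard errors were larger than with litter F, so wider differences are not excluded. The estimates of Rgs5 and Vtn became smaller in size there, and that of Notch3 changed sign.

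No other pericyte gene or pathway partner passed the FDR, and the smallest p among them was that of Angpt2. Of 18 other pericyte genes 11 were lower and 7 higher, with a median log2 fold change of -0.03, and the 3 with an unadjusted p under 0.05 were all lower: Slc6a20a at -0.18, Ebf1 at -0.10 and Mcam at -0.09 on the log2 scale, with FDRs of 0.746, 0.865 and 0.959. Beside the 2.26% of all genes lower at that mark this count was not stable: with 1 brain left out it ranged from 0, without replicate 4, to 5, without WT replicate 2, and it was 0 with genotype alone. In the fit without litter F the count was again 3, with Slc19a1 in place of Mcam. The proteoglycan gene Cspg4 (NG2) was at 34.1 ± 3.43 CPM in WT and 34.9 ± 2.64 CPM in Capn15 KO. Of the angiopoietin genes, Angpt1, which mural cells make to steady the endothelium through TIE2, was at 26.0 ± 3.18 and 25.2 ± 2.83 CPM. Its antagonist Angpt2 ran from 5.57 to 7.30 CPM in WT and from 4.59 to 7.09 CPM in Capn15 KO, lower in 7 of 7 pairs. The log2 fold change of Angpt2 was -0.32 with a standard error of 0.0624 (quasi-likelihood FDR = 0.176), and -0.33 without litter F. Among 24 alternative fits, not all of them separate checks, the FDR was under 0.05 in 1, edgeR's likelihood ratio test (FDR = 0.00306). The paper's own edgeR test, with sex and litter as variables, lists Angpt2 among the decreased mRNAs at an FDR under 0.05. The decrease of Angpt2 listed there is also larger than the one here. Why that call and that size differ from those here was not tested. Of 8 TGF-beta genes 0 had an unadjusted p under 0.05, among them Tgfb1 at 2.48 ± 0.157 and 2.66 ± 0.484 CPM and endoglin (Eng), the nearest to it, at 15.3 ± 1.94 and 16.9 ± 1.14 CPM. Of 12 endothelial markers 1 had an unadjusted p under 0.05, beside 5.14% of all genes. It was Cldn5, the main claudin of the blood-brain barrier, higher in Capn15 KO at 58.0 ± 5.12 CPM than in WT at 54.3 ± 5.74 CPM (SD, n = 7 each, quasi-likelihood FDR = 0.959). The endothelial count was 0 with genotype alone, with the replicate number in place of litter, and without WT replicate 2.

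Differences between litters passed the test in 4 members. With genotype and sex in the model, Pdgfrb (FDR = 0.00359), Rgs5 (FDR = 0.00663), Abcc9 (FDR = 0.0117) and Myh11 (FDR = 0.018) differed between the 6 litters, 4 of 10 members beside 29.6% of all genes. Rgs5 was highest in litter A at a mean of 169 CPM and lowest in litter E at 115 CPM, a ratio of 1.47. Pdgfrb was highest in litter B at 44.3 CPM and lowest in litter D at 33.5 CPM. Myh11 had its extremes in the same pair of litters with the order turned round, at 3.70 CPM in litter B and 5.34 CPM in litter D. Abcc9 was lowest in litter D at 18.3 CPM and highest in litter A at 24.2 CPM. The hemoglobin and other red blood cell genes also differed between litters, 6 of 6 by FDR, with sums from 31.1 to 325 CPM in WT and from 35.8 to 241 CPM in Capn15 KO.

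**Figure D4:**
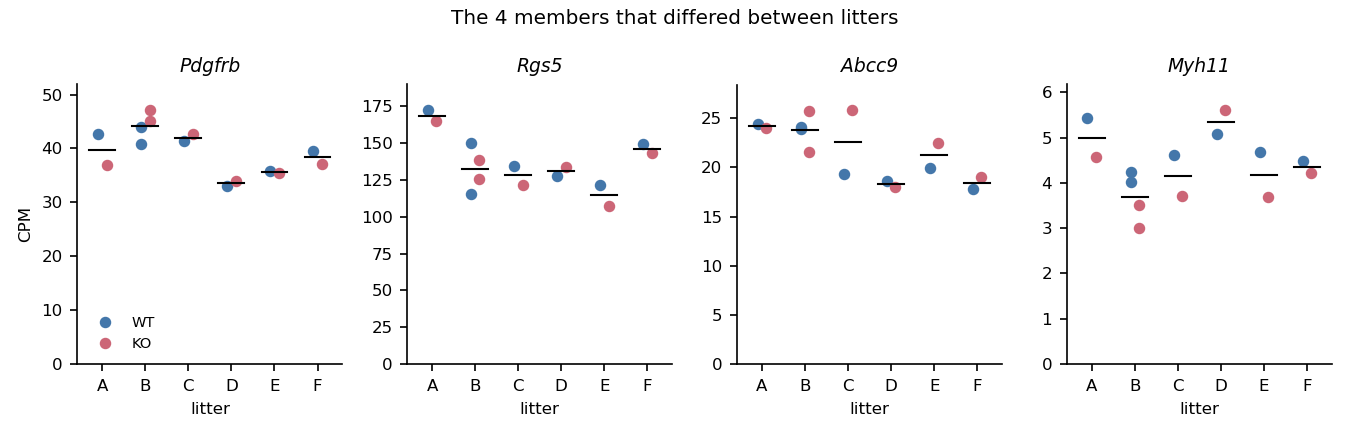
CPM by litter of the 4 members whose level differed between litters at an FDR under 0.05, 1 point per brain (WT blue, Capn15 KO red), with black bars at the litter means (4 brains in litter B, 2 in each other litter). Litter D is lowest for Pdgfrb and Abcc9 and highest for Myh11.

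No member passed the test between the sexes. None of 10 had an unadjusted p under 0.05 between males and females, beside 5.04% of all genes, and the smallest was that of Anpep, at 3.11 ± 0.319 CPM in 8 males and 2.75 ± 0.306 CPM in 6 females. Whether the genotype difference itself depended on sex could be estimated only through litter F, since the brains of every other pair were of opposite sex. As the Capn15 levels of the litter F brains bear out neither label, every interaction value here rests on brains of uncertain genotype. The smallest of the members' interaction p-values was 0.179, with standard errors of 0.232 to 0.523 on the log2 scale, so that sizeable differences would have been missed.

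How the members varied together was examined in 60 relations over the 14 brains, each on log2 CPM with the genotype mean removed, 45 of them between members. None held after Benjamini-Hochberg adjustment over the 60. The permutations moved all 14 brains freely, so these p-values take brains of the same litter as independent. The closest pair was Rgs5 and Vtn (Pearson's r = 0.766, adjusted permutation p = 0.0754; Spearman's rho = 0.807, adjusted permutation p = 0.0546), which kept r = 0.743 without the 2 brains farthest from the median and 0.839 once litter, sex and genotype were removed. By Pearson's r, Pdgfrb and Kcnj8 followed (Pearson's r = 0.72, adjusted permutation p = 0.0754; Spearman's rho = 0.714, adjusted permutation p = 0.0742), with 0.696 without those 2 brains and 0.776 within litters. By rho, Kcnj8 with Myh11 at -0.749 and Notch3 with Acta2 at 0.745 came before them (adjusted permutation p = 0.0632 for each). The neighbours Kcnj8 and Abcc9 gave r = 0.613 (adjusted permutation p = 0.103) and rho = 0.705 (adjusted permutation p = 0.0742), 0.573 without the 2 farthest brains, and 0.07 within litters, a difference that was not tested. Within-litter values rest on residuals with 6 degrees of freedom.

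Relations among the members were uneven in size and sign. The median r was 0.18 over the 21 pairs of pericyte genes, 0.45 over the 3 contractile pairs and -0.14 over the 21 pairs between the groups, where Kcnj8 and Myh11 lay at -0.703 and Rgs5 and Acta2 at 0.678. The mean log2 CPM of the pericyte genes against that of the contractile genes gave r = -0.202 (adjusted permutation p = 0.675) and rho = -0.182 (adjusted permutation p = 0.802), -0.351 without the 2 farthest brains and 0.14 within litters. Against the endothelial markers the pericyte mean gave r = 0.649 (adjusted permutation p = 0.0915) and rho = 0.648 (adjusted permutation p = 0.117), falling to 0.421 without the 2 farthest brains and standing at 0.809 within litters. Against the red blood cell genes it gave r = 0.708 (adjusted permutation p = 0.0754) and rho = 0.618 (adjusted permutation p = 0.147), 0.566 without the 2 farthest brains, but -0.339 within litters.

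**Figure D5:**
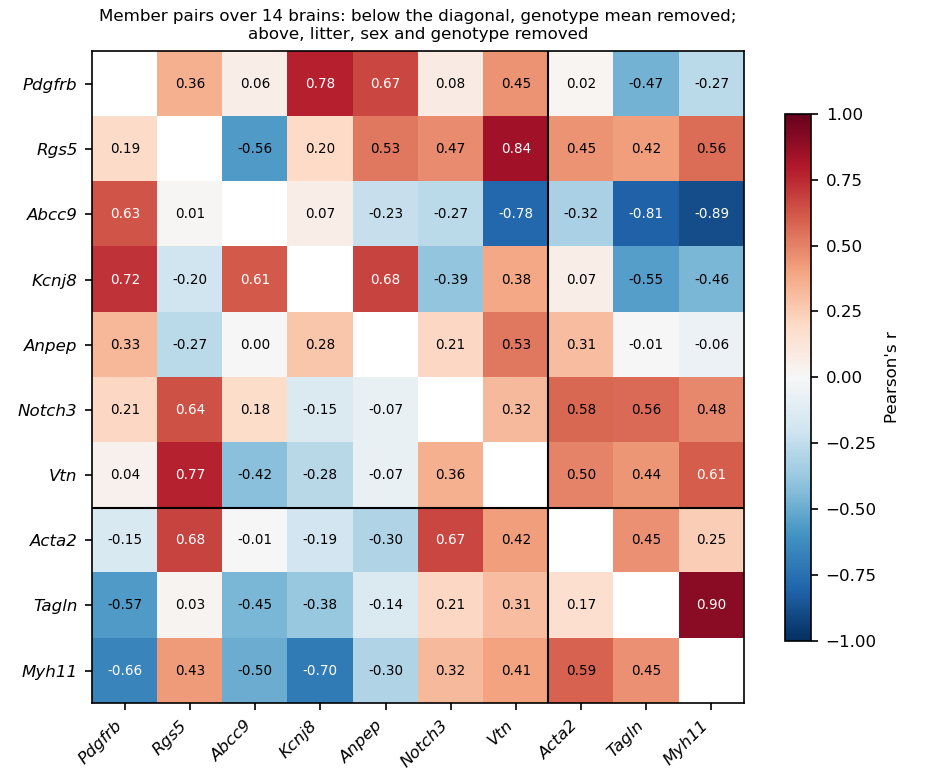
Pearson's r between members over 14 brains, below the diagonal with the genotype mean removed and above it with litter, sex and genotype removed, with lines between the 7 pericyte and 3 contractile genes. Rgs5 with Vtn is high on both sides (0.77 and 0.84), and Abcc9 with Kcnj8 falls from 0.61 to 0.07.

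The genes whose levels tracked the members most closely were ranked among 15217 other genes with a mean of at least 1 CPM, as a description with no test, since the highest of so many will be high. For the 7 pericyte genes the closest 8 were Nid1, Elk3, Fam234a, Uaca, Adgrf5, Fn1, Slco2b1 and Fzd6, with Pearson's r over the 14 brains from 0.901 for Nid1 to 0.86 for Fzd6. Once litter, sex and genotype were removed, these 8 ran from 0.593 for Nid1 to 0.906 for Uaca. Nid1 encodes nidogen 1 of the basement membrane at 82.1 CPM, and Fn1 encodes fibronectin at 94.6 CPM. Of these 8, Slco2b1, an organic anion transporter gene, had an unadjusted genotype p under 0.05 (log2 fold change 0.09, FDR = 0.965). For the contractile genes the closest 8 were Slc30a6, Slc25a23, Sult2b1, Olfm1, Dok5, Cdk5r2, Echdc2 and Gnao1, with r from 0.908 to 0.876. Within litters these ran from 0.729 for Gnao1 to 0.861 for Olfm1. None of the genes on the lists used here was among these 16.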

How the data were processed

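RNA-SEQ was run on 14 whole brains at P2, 7 per genotype. The authors used Trimmomatic for trimming and STAR for alignment to GRCm38, and deposited raw counts for 17927 genes, 1 column per brain. The paper names ScriptSeq and HTSeq-count, the labels a stranded TruSeq kit and featureCounts. The annotation release, strand setting and gene filter are not given in the sources used here. A second deposited table gave symbols.

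Genotype came from the labels, litter and sex from the column names. Same-numbered brains share a litter, which pairs them, and correlations of their deviations lay between -0.467 and 0.443. Counts were tested in R 4.3.3 with edgeR 4.0.16 (quasi-likelihood, TMM, genes with at least 1 count, litter, sex and genotype, Benjamini-Hochberg FDR of 0.05 over all genes), and, as alternatives, DESeq2 1.42.0 and limma 3.58.1. All 10 members passed the filter. Standard errors come from the estimate and its F. CPM use TMM factors, and log2 CPM a prior count of 2. Exact permutation tests used 3432 regroupings (smallest p 0.000583), sign-flip tests 128 (smallest 0.0156), correlations 100000 permutations, all two-sided. The tests were tried on simulated data first. Exon lengths are from GENCODE M21.

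The members and the 17 gene lists were chosen with earlier results of these data known. Named were all members, Capn15, the gene with the smallest p of each list, 10 partner genes (Pdgfb, Angpt1, Angpt2, Jag1, Tgfb1, Kcnj11, Abcc8, Cspg4, Cnn1, Myocd) and 8 genes most like each group. Srf, Heyl, Hes1, Itgb3, Itgb5 and the list genes named beside a count were added after their values were seen. The 95% intervals come from the quasi-likelihood fit and include variation between brains.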

Additional observations from a re-analysis of the deposited data

How the results depend on the processing

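No member had an FDR under 0.05 between genotypes under any of 10 other settings or with any of the 14 brains left out. These are not all separate checks. In a litter of 2 brains, leaving out either brain leaves its partner to the litter term, so both fits give nearly the same estimate. For litter F both nearly repeat the fit without that litter. Over all genes the number under that FDR was 1, and it was 34 with edgeR's likelihood ratio test, 17 with DESeq2, 2 without sex in the model, 7 without litter F, 0 with library totals in place of TMM, and 0 with the replicate block in place of litter, the paired fit, in which 3 of 3 contractile genes had an unadjusted p under 0.05 as in the fit with litter, and the paired fit changed no call of a member. Leaving out 1 brain gave 0 to 7 genes. The contractile genes with an unadjusted p under 0.05 numbered 0 with DESeq2, 0 with genotype alone and 0 to 3 with 1 brain left out, and their median log2 fold change ranged from -0.26 to -0.086 over the left-out brains. For the pericyte genes these were 0 to 2 genes and -0.02 to 0.02, the highest number when WT replicate 5 or 2 or KO replicate 5 was left out (Abcc9 at 0.19 and Vtn at -0.14 without KO replicate 5). Without litter F Notch3 turned to -0.012 in the fit and to -0.0268 in the difference of mean log2 CPM. With 1 brain left out Pdgfrb ranged from -0.0156 to 0.0344, Anpep from -0.0611 to 0.0202 and Notch3 from -0.0419 to 0.12. The likelihood ratio test called 36 genes for sex and 48 for the interaction of genotype and sex, beside 12 and 1. Per kilobase of the longest transcript Vtn was at 42.0 and Tagln at 2.26 CPM, with the order of members as before. The interaction could not be estimated without litter F and was not run there. The cause of these changes was not tested. At 106 to 296 counts per brain, Anpep, Tagln and Myh11 carry the most counting error.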

Other observations

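Genes of brain cells outside the vessel wall were read in the same fit, in which 5.14% of all genes had an unadjusted p under 0.05. Of 8 microglia and border macrophage markers 4 were lower and 4 higher in Capn15 KO, and 1 had an unadjusted p under 0.05: Mrc1, the mannose receptor of border macrophages, at 32.2 ± 3.87 CPM in WT and 29.02 ± 3.25 CPM in Capn15 KO (SD, n = 7 each; log2 fold change -0.10, quasi-likelihood FDR = 0.959). Of 6 neuron markers 1 had an unadjusted p under 0.05, Dcx, a microtubule protein of young neurons, at 724 ± 113 and 751 ± 81.5 CPM (log2 fold change 0.08, FDR = 0.857). Of 6 red blood cell genes 0 had an unadjusted p under 0.05, and Hba-a2, the nearest to it, was at 14.8 ± 8.58 and 13.3 ± 6.42 CPM, a gene with near-identical copies, so that its value is uncertain. In the fit without litter F, Mrc1 and Dcx no longer had an unadjusted p under 0.05, while Hba-a2, at a log2 fold change of -0.28, had.

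The 6 choroid plexus markers had a median log2 fold change of -0.26, and the contractile genes one of -0.18. Without litter F both medians were -0.19. The potassium channel gene Kcnj13 was at 3.89 ± 0.462 CPM in WT and 3.09 ± 0.33 CPM in Capn15 KO (SD, n = 7 each), lower in 7 of 7 pairs, with a log2 fold change of -0.31 (quasi-likelihood FDR = 0.466) and of -0.26 without litter F. With each brain left out in turn 4 or 5 of the 6 choroid plexus markers had an unadjusted p under 0.05, all lower, while the number among the 3 contractile genes ranged from 0 to 3. Without litter F these numbers were 4 of 6 and 2 of 3, and with genotype alone 1 of 6 and 0 of 3. Kl, the marker that had no such p, was at -0.13.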
